A study of Homo sapiens with 12 samples.

Results

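Kinesin-1 is the microtubule motor that carries mitochondria, vesicles and other cargo toward the axon tip. Its heavy chains (*KIF5A*, *KIF5B*, *KIF5C*) hold the motor, and light chains or adaptor proteins select the cargo. The genes described here encode light chains (*KLC1*, *KLC2*, *KLC4*), adaptors for mitochondria (*TRAK1*, *TRAK2*, *RHOT1*, *RHOT2*) and adaptors for vesicles (*MAPK8IP3*, *FEZ1*, *SYBU*). The members were chosen as a named list and taken by gene symbol, and all 10 were present, with 1 identifier each, among the 16406 genes of the iMN table and the 19016 genes of the i3N table.

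Light chains bind the tails of a pair of heavy chains and recognize cargo through tetratricopeptide repeats. Mitochondria are attached differently. RHOT1 and RHOT2 (Miro) are calcium-binding GTPases of the outer mitochondrial membrane, and TRAK1 and TRAK2 join them to kinesin-1 and dynein. MAPK8IP3 (JIP3) is a scaffold for JNK kinases, FEZ1 links kinesin-1 to synaptic cargo, and syntabulin (SYBU) joins kinesin-1 to syntaxin vesicles and mitochondria. In neurons these proteins help to set which organelles reach the axon.

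RNA-seq was performed on 12 libraries in 4 groups of 3. Motor neurons (iMNs) were made from an iPSC line in which Td-Tomato is driven by the HB9 promoter and were sorted on that reporter, whereas excitatory neurons (i3Ns) were made from the human ES cell line H1 by inducible NGN2. Both cell types carried a lentiviral, doxycycline-inducible shRNA, either scrambled (SCR) or directed against *SMN1* and *SMN2* (*SMN*-KD). A single line stands for each type of neuron, so that neuron type, line and protocol cannot be told apart, and the labels do not say whether replicates were separate differentiations.

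The values described here are the mean normalized counts of the deposited tables, the authors' means over the SCR and *SMN*-KD libraries of a cell type as 1 pool. A normalized count is the estimated number of sequenced fragments from a gene, divided by a factor for the depth of its library. Whether a correction for transcript length also entered is not stated in the paper. The level in SCR, the level in *SMN*-KD and the values of single libraries were not analysed here, so no difference between *SMN*-KD and SCR, no knockdown of the target and no SD is given. The 2 tables were normalized separately. Differences between them are therefore descriptions with no test, and they can contain unequal responses of the cell types to *SMN*-KD.

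The cell type labels were compared with marker genes. All 6 general neuronal markers were present in both tables, with summed means of 284188 in iMNs and 266088 in i3Ns. Single members differed more than the sum, with means of 18426 and 4847 for the synaptic protein *SNAP25* and of 11673 and 22971 for the synaptic vesicle protein *SYT1*. All 8 motor neuron markers were listed in both, with sums of 21575 and 31064. The transporters of cholinergic neurons were higher in iMNs, with means of 8460 and 2472 for the choline transporter *SLC5A7* and of 3115 and 1865 for the vesicular transporter *SLC18A3*. *CHAT*, which makes acetylcholine, was about equal (533 and 527). The motor neuron transcription factors went against the labels, since *MNX1*, the gene of HB9, had means of 430 in iMNs and 2279 in i3Ns, and *ISL1* had means of 1663 and 14299. Of 7 markers of cortical glutamatergic neurons, 5 were listed in iMNs and 6 in i3Ns, with sums of 2431 and 22483. The glutamate transporter *SLC17A7* was lower in iMNs (50.1) than in i3Ns (6490). Among cortical factors in i3Ns, *EMX1* (59.1) was low and *NEUROD6* was absent from both tables. *GFAP* and *AQP4* of astrocytes and *SOX10* of oligodendrocytes were absent as well, while the cycling marker *MKI67* had means of 28.3 in iMNs and 522 in i3Ns. The 5 mesenchymal markers summed to 2577 and 6221, and of the pluripotency markers *LIN28A* had means of 215 and 4216, while *POU5F1* (13.9) and *NANOG* (7.73) were low in i3Ns and not listed in iMNs. The part of these differences in the levels below was not tested.

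All 10 genes lay above the median gene of their table, whose mean normalized count was 875 in iMNs and 577 in i3Ns. The lowest was *SYBU* in iMNs, above 56.6% of all genes, and the highest was *KLC1* in i3Ns, above 99.2%. Their means ran from 1179 to 24547 in iMNs and from 1809 to 27444 in i3Ns. To compare genes with each other, each mean was divided by the length of the gene's MANE Select transcript, a reference transcript agreed between annotations, and is given per kb. On this scale the members spanned a 25.2-fold range in iMNs and a 23.2-fold range in i3Ns.

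In iMNs the order from the highest level per kb was *KLC1*, *KLC2*, *MAPK8IP3*, *TRAK1*, *RHOT1*, *FEZ1*, *RHOT2*, *KLC4*, *TRAK2* and *SYBU*. In i3Ns it was *KLC1*, *KLC2*, *TRAK1*, *MAPK8IP3*, *SYBU*, *TRAK2*, *RHOT1*, *RHOT2*, *KLC4* and *FEZ1*. The first 2 places were the same in both tables, and *KLC1* stood 3.18-fold above *KLC2* in iMNs and 3.44-fold above it in i3Ns. Some neighbours were nearly level. *RHOT1* exceeded *FEZ1* by 1.08-fold in iMNs, and *MAPK8IP3* exceeded *SYBU* by 1.01-fold in i3Ns. Without a spread between libraries, it cannot be said which neighbours differ. The order rests on the reference lengths and was not repeated with other lengths.

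**Figure D1:**
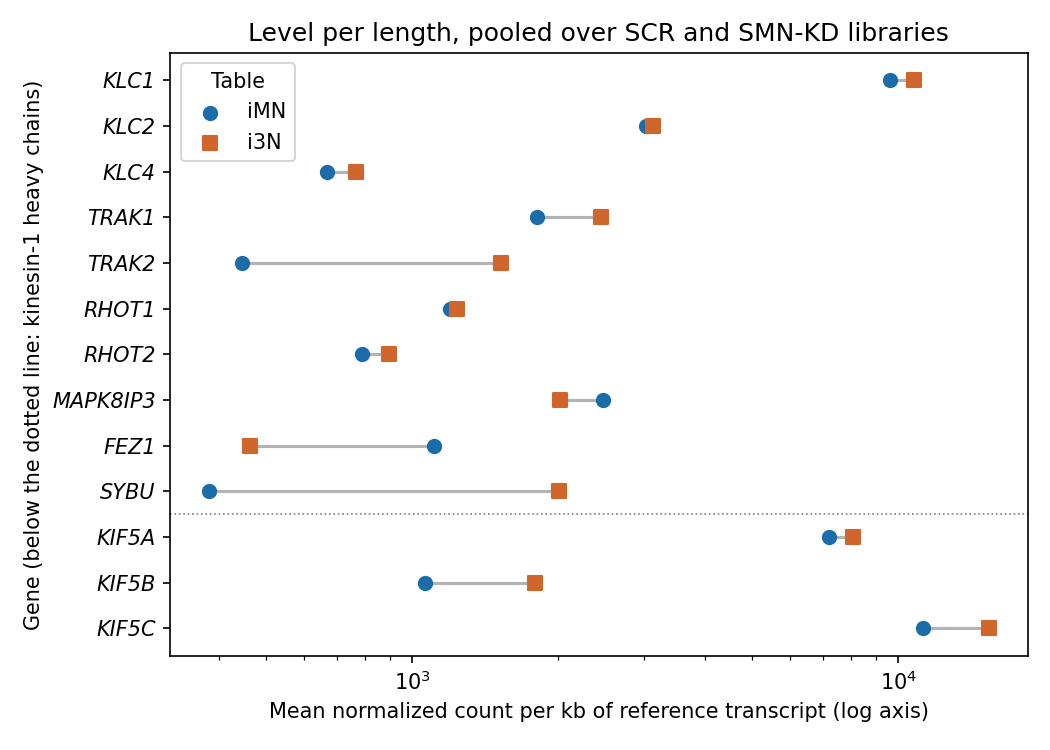
Mean normalized count per kb of reference transcript (log axis) for the 10 genes and, below the dotted line, the 3 kinesin-1 heavy chains. Circles are iMNs, squares are i3Ns, each point is a mean over SCR and *SMN*-KD libraries, and no error is available. The points of *SYBU* (382 and 2002 per kb), *TRAK2* (446 and 1526) and *FEZ1* (1109 and 464) lie farthest apart.

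The light chains had closely similar levels in both tables. *KLC1* (ENSG00000126214, chromosome 14 from 103561896 to 103714249, plus strand, GRCh38), the main neuronal light chain, had a mean normalized count of 24547 in iMNs and 27444 in i3Ns, a ratio of i3Ns to iMNs of 1.12. *KLC2* (ENSG00000174996, chromosome 11 from 66257294 to 66267860, plus strand) had means of 8930 and 9243, a ratio of 1.03. *KLC4* (ENSG00000137171, chromosome 6 from 43040777 to 43075095, plus strand), a less studied light chain, had means of 1580 and 1809, a ratio of 1.14. All 3 were thus slightly higher in i3Ns as deposited, a direction that *KLC2* lost when the tables were scaled to each other. The fourth light chain gene, *KLC3*, which is best known from sperm, had means of 42.8 and 49.5.

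Per length, *KLC1* made up 72.1% of the 4 light chains in iMNs and 73.3% in i3Ns, and *KLC2* made up 22.7% and 21.3%. *KLC4* accounted for 5.02% and 5.22%, and *KLC3* for 0.180% and 0.189%. These shares are taken within a table and do not depend on how the tables were scaled against each other. The value of *KLC1* has a limit in the annotation. A read-through gene on the same strand, ENSG00000256500, covers 64.7% of the *KLC1* reference transcript, and it was listed on its own with means of 285 in iMNs and 205 in i3Ns. Salmon may have split fragments between these genes.

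Set against the motor, the summed light chains came to 0.683 per heavy chain in iMNs and 0.582 in i3Ns, per length. The heavy chains were dominated by *KIF5C* in both tables, with 57.7% in iMNs and 60.8% in i3Ns, followed by *KIF5A* with 36.8% and 32.1%. *KIF5B*, the form used by most cells, made up 5.44% and 7.09%. The paper reports less *KIF5A* RNA after *SMN*-KD in both cell types. These pooled shares and ratios therefore do not describe SCR neurons alone. The lower ratio in i3Ns came with a heavy chain sum that was 1.29-fold that of iMNs, whereas the light chain sum was 1.10-fold. These are ratios of RNA, and with the median length of the coding transcripts they were 0.158 and 0.149.

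Of the mitochondrial adaptors, *TRAK2* differed most between the tables. *TRAK2* (ENSG00000115993, chromosome 2 from 201377207 to 201451500, minus strand), best known for carrying mitochondria in dendrites together with dynein, had a mean normalized count of 2852 in iMNs and 9750 in i3Ns, a ratio of 3.42. Its place rose from above 76.9% of the genes of its table to above 95.3%. *TRAK1* (ENSG00000182606, chromosome 3 from 42013802 to 42225890, plus strand), which serves mainly axons, had means of 9281 and 12548, a ratio of 1.35. Per length of the reference transcripts, *TRAK1* was 4.05-fold above *TRAK2* in iMNs and 1.60-fold above it in i3Ns. With the median length of the annotated coding transcripts instead, the share of *TRAK1* in the pair was 50.1% in iMNs and 28.5% in i3Ns, so that the order depends on the length used. With the reference lengths, the share of *TRAK2* in the pair was 19.8% in iMNs and 38.4% in i3Ns. The ratio of *TRAK1* to *TRAK2* was 2.53-fold higher in iMNs than in i3Ns, a figure that depends neither on the scaling of the tables nor on a fixed transcript length for each gene.

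Their partners on the mitochondrion were more even. *RHOT1* (ENSG00000126858, chromosome 17 from 32142454 to 32253374, plus strand) had means of 3787 and 3905 normalized counts, a ratio of 1.03. *RHOT2* (ENSG00000140983, chromosome 16 from 668100 to 674174, plus strand) had means of 1966 and 2234, a ratio of 1.14. *RHOT1* made up 60.2% of the pair in iMNs and 57.9% in i3Ns per length of the reference transcripts, but 32.7% and 30.6% with the median length of the coding transcripts. The sum of *TRAK1* and *TRAK2* per length was 1.14 times that of *RHOT1* and *RHOT2* in iMNs and 1.86 times in i3Ns, and *TRAK2* made up most of the difference in the TRAK sum.

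**Figure D2:**
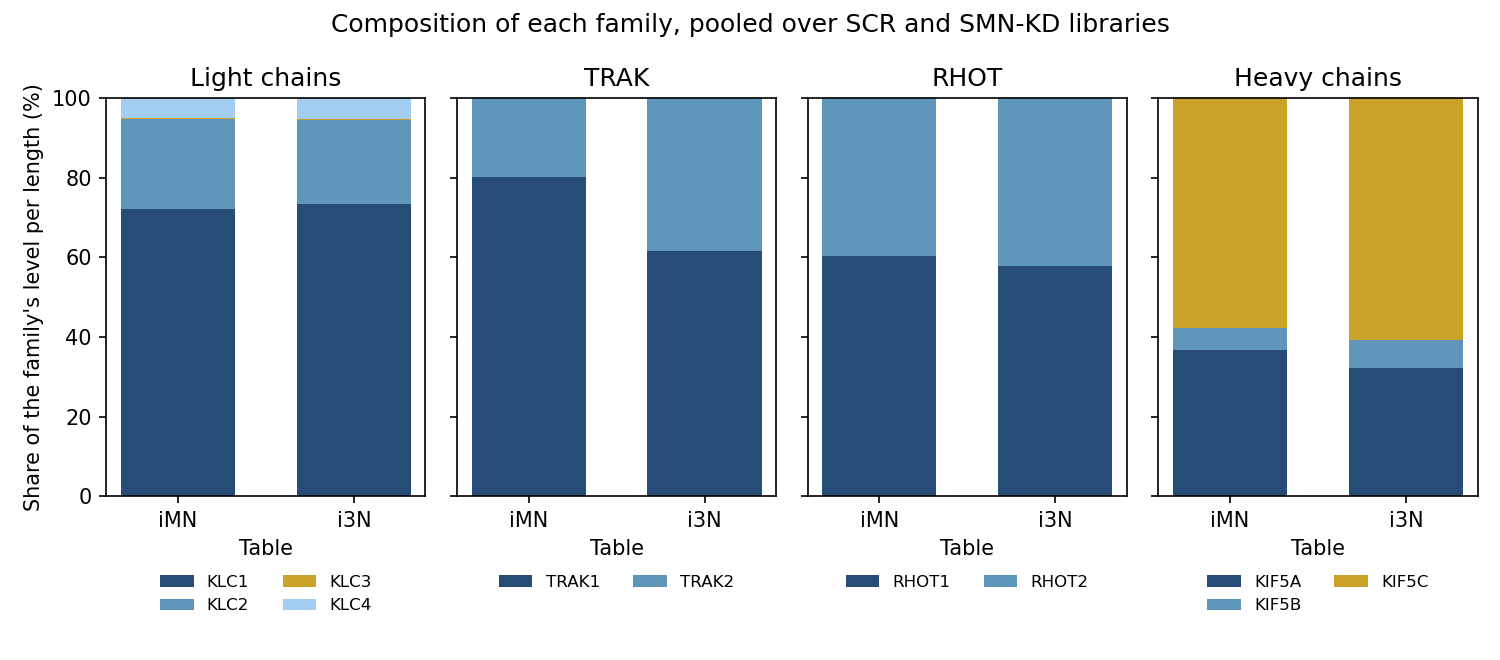
Share of each gene in the summed level per length of its family (%), for the light chains, TRAK, RHOT and the heavy chains in iMNs and i3Ns, from means over SCR and *SMN*-KD libraries. The light chain bars are nearly alike (*KLC1* 72.1% and 73.3%), while the *TRAK2* part is 19.8% in iMNs and 38.4% in i3Ns.

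The vesicle adaptors differed most from each other in their ratios between the tables. *SYBU* (ENSG00000147642, on chromosome 8) had a mean normalized count of 1179 in iMNs and 6173 in i3Ns, a ratio of 5.24, the largest of the 10 genes. *FEZ1* (ENSG00000149557, chromosome 11 from 125442881 to 125592568, minus strand) went the other way, with means of 5081 in iMNs and 2128 in i3Ns, so that it was 2.39-fold higher in iMNs. *MAPK8IP3* (ENSG00000138834, chromosome 16 from 1706166 to 1770351, plus strand) had means of 14060 and 11465 and was 1.23-fold higher in iMNs. Within a table, *SYBU* stood at 0.345 times the level of *FEZ1* per length in iMNs and at 4.31 times its level in i3Ns. *MAPK8IP3* was 6.47-fold above *SYBU* in iMNs and level with it in i3Ns. These ratios between genes use the reference lengths and were not repeated with other lengths. They depend on the length used, since 1176 of the 4583 bases of the *FEZ1* reference transcript are coding, against 1989 of 3083 for *SYBU*.

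The log2 ratio of i3Ns to iMNs had a median of 0.17 over the 10 genes and of 0.07 over the 16093 genes found in both tables. All 10 genes had a mean of at least 1000 in both tables. Among the 6960 genes of which this is true, the median log2 ratio was 0.11, and 59.0% were higher in i3Ns. Of the 10, 8 were higher in i3Ns as deposited and 2 in iMNs, but *KLC2* and *RHOT1* lay so close to equality that they changed sides when the tables were scaled to each other. The differences of *SYBU*, *TRAK2* and *FEZ1* exceeded 2-fold, as did those of 8.66% of these 6960 genes. Over all 16093 genes found in both tables, which include genes of low level, the share was 24.5%. The log2 ratios of the other 7 members ran from -0.29 for *MAPK8IP3* to 0.44 for *TRAK1*.

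**Figure D3:**
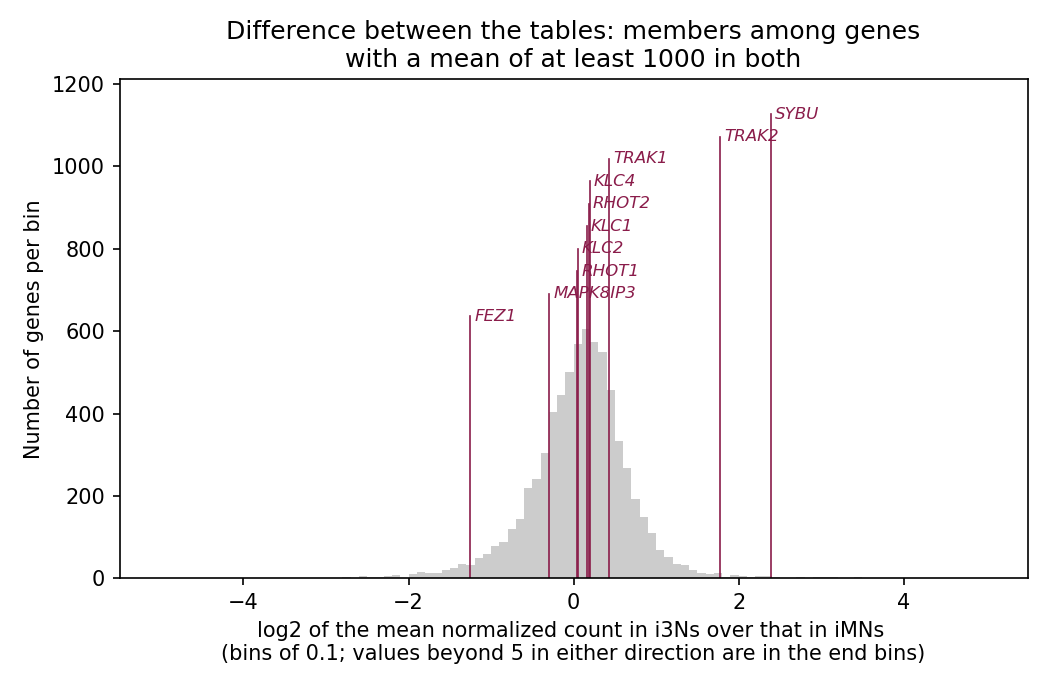
Number of genes by the log2 ratio of their mean normalized count in i3Ns to that in iMNs, for the 6960 genes with a mean of at least 1000 in both tables, in grey. Lines mark the 10 genes, of which *FEZ1* (-1.26) lies to the left of the bulk and *TRAK2* (1.77) and *SYBU* (2.39) to its right.

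Another 21 genes with known ties to kinesin-1 were listed in both tables, 16 of them above the median gene in each. As deposited, 13 were higher in iMNs and 8 in i3Ns, with a median log2 ratio of -0.13, and with the tables scaled by their median ratio 14 were higher in iMNs. Of the 21, *HAP1*, *MAP7D2* and *DISC1* differed by more than 2-fold as deposited, and *MAP7* also did after either scaling. Of the 16093 genes found in both tables, 54.0% were higher in i3Ns and 24.5% differed by more than 2-fold, as deposited. *HAP1*, a huntingtin-associated adaptor, had means of 798 in iMNs and 54.8 in i3Ns. *MAP7D2*, which recruits kinesin-1 to microtubules, had means of 3055 and 978, and the scaffold *DISC1* had means of 141 and 367. *MAPK8IP1* and *MAPK8IP2*, which like *MAPK8IP3* are JNK scaffolds, had ratios of i3Ns to iMNs of 0.923 and 0.842, and *FEZ2*, the paralog of *FEZ1*, had one of 0.818. The highest mean of the list was that of *DPYSL2* (71762 and 90234), which links kinesin-1 to tubulin. The lowest was that of *KLC3*.

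**Figure D4:**
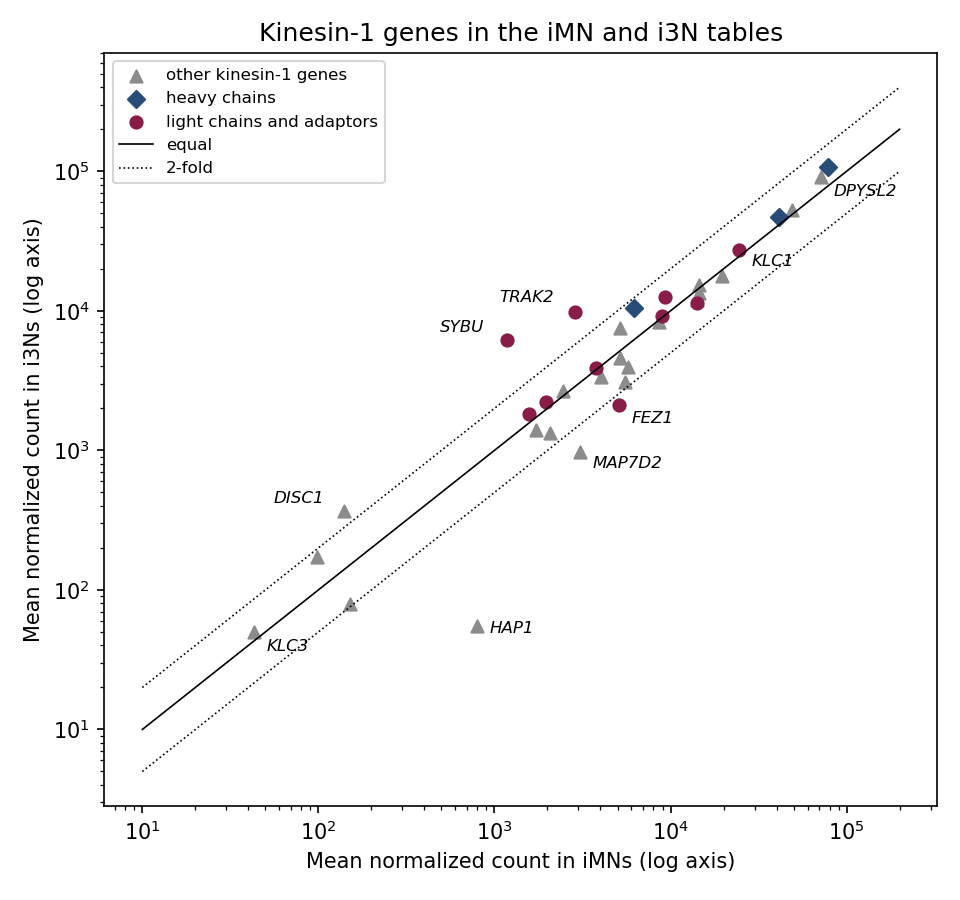
Mean normalized count in iMNs against that in i3Ns (both log axes) for the light chains and adaptors (circles), the heavy chains (diamonds) and the other 21 kinesin-1 genes (triangles), with a solid line at equality and dotted lines at a 2-fold difference. *SYBU*, *TRAK2* and *DISC1* lie above the band and *FEZ1*, *MAP7D2* and *HAP1* below it.

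How far the level of a gene could be separated from its neighbours in sequence was examined through stretches of 31 bases of the reference transcript that also occur in a transcript of another gene, on either strand. Such stretches made up none of *TRAK1*, *RHOT2* and *SYBU*, and 0.0354% of *MAPK8IP3*. They made up 1.81% of *TRAK2*, 3.90% of *KLC4*, 4.06% of *FEZ1*, 8.93% of *KLC2* and 12.9% of *RHOT1*. Only *KLC1* had a large share (65.3%), nearly all of it from the read-through gene. The tables give 1 value per gene, so the isoforms of these genes, 20 annotated coding transcripts for *KLC1* and 32 for *SYBU*, were not separated.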

How the data were processed

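Total RNA was depleted of ribosomal RNA and sequenced with 150 bp paired-end reads. Adapter removal with fastp, Salmon quantification and a DESeq2 comparison of *SMN*-KD against SCR in each cell type were done by the authors. Versions, transcript annotation and the filter on low counts are not given in the sources used here. The deposited signal used here is the mean of normalized gene counts over all libraries of a cell type. The deposited tables also hold the log2 fold changes, standard errors and p-values of the authors' own comparison, which were not used. Total counts per library are therefore unknown, and no interval is given. Summed over genes, the means came to 43320593 in iMNs and 45043437 in i3Ns.

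Groups were taken from the sample titles. Genes were matched between tables on the Ensembl identifier. Positions and transcript lengths are from GENCODE 44 on GRCh38, and the submitters' processing notes name hg38. Levels per kb are means divided by the MANE Select transcript length. Python 3.11.15, numpy 2.4.6, pandas 2.3.3 and matplotlib 3.10.9 were used. The scaling by the median ratio was tested on a simulated copy of the iMN means with few genes changed. The scaling to an equal sum was not tested. The simulation cannot show how well either scaling suits the 2 cell types, where 24.5% of shared genes differed by more than 2-fold. A quasi-likelihood test had been planned for counts per library and was not run. Every member is named, with the heavy chains as context, and of the other kinesin-1 genes the highest and lowest are named. *HAP1*, *MAP7*, *MAP7D2*, *DISC1*, *MAPK8IP1*, *MAPK8IP2* and *FEZ2* were named after their values were seen. A single cell type marker is not reported here. Members and lists were chosen with earlier results of these data known. Alternatives changed the scaling between tables, the filter, the gene class, the handling of identifiers and the transcript length.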

Additional observations from a re-analysis of the deposited data

How the results depend on the processing

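The number of genes higher in iMNs was 2 as deposited and 4 with the tables scaled to an equal sum over shared genes or by the median ratio of genes with a mean of at least 100. *KLC2* then changed sides with log2 ratios of -0.0057 (sum) and -0.050 (median), and *RHOT1* with -0.011 and -0.055, while the directions of the other 8 were kept under both scalings. The median ratio shifts every log2 ratio by -0.10. All members have 1 identifier, so summing identifiers changed nothing. Restricted to genes with a mean of at least 100, 9 members lay above the median in iMNs. Transcript length mattered for ratios between genes. With no length, coding length and the median length of coding transcripts, in this order, the *KLC1* share was 69.9%, 69.3% and 65.8% in iMNs and 71.2%, 70.6% and 67.0% in i3Ns. The *TRAK1* share was 76.5%, 75.7% and 50.1% in iMNs and 56.3%, 55.2% and 28.5% in i3Ns. The *RHOT1* share was 65.8%, 64.4% and 32.7% in iMNs and 63.6%, 62.1% and 30.6% in i3Ns, so the order within TRAK in i3Ns and within RHOT in both tables turned with the median length, which includes short partial transcripts. Light chains per heavy chain came to 0.278, 0.431 and 0.158 in iMNs and 0.235, 0.363 and 0.149 in i3Ns, lower in i3Ns each time. No replicate could be left out of a mean. No paired analysis was possible because the columns used carry no replicate numbers.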
